A study of Homo sapiens with 6 samples.

Results

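The 44 genes described here act in homologous recombination, in the Fanconi anaemia pathway of crosslink repair, in mismatch repair, in end joining by polymerase theta and in the signalling of DNA damage by checkpoint kinases. They were taken by symbol from the 35322 gene symbols of the count table. The rule is a list of symbols with no threshold on a measured value, but it was drawn up with earlier results of these data known. All 44 were found, and all 44 passed the filter on low counts and were tested. RNA had been sequenced from 22Rv1, an established human prostate carcinoma cell line, in 2 libraries of control cells, 2 of a first knockdown of ZMYND11, called ZMYND11 kd1, and 2 of another, called ZMYND11 kd2. ZMYND11 is a chromatin reader of methylated histone H3.3, and the comparisons ask how its knockdown changes RNA levels in these cells. The labels call the genotype of the control cells WT, list no treatment for any library, and name no hairpin. The study's methods describe stable knockdown with lentiviral shRNA vectors and puromycin selection, without tying an shRNA to either label. Its text describes the sequenced 22Rv1 cells as carrying, stably, shRNAs against ZMYND11 or control shRNAs, so the control cells may be vector controls despite the label WT. Each knockdown label may stand for 1 transduced population. Nothing in the labels says that the 2 libraries of a group came from separate cultures, so the p-values below measure the spread between these libraries, which may be technical.

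Homologous recombination repairs a double-strand break by copying a sister chromatid: the broken end is resected to single-stranded DNA, BRCA2 and its partners ready the single strand for invasion of the intact copy, and the joint molecules are later dissolved or cut. The Fanconi pathway recognises DNA strands that are crosslinked at a replication fork, marks the FANCD2 and FANCI proteins with ubiquitin and hands the lesion to nucleases and recombination. Much of this machinery works in S and G2 phase, and many of its genes are transcribed in dividing cells under E2F factors. In prostate cancer, inherited and acquired defects in BRCA2, ATM and mismatch repair genes are well known.

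Each library held 26844128 to 38193748 counts. ZMYND11 itself had 141 and 135 CPM (read counts as a rate in each library, scaled by the TMM method) in the control libraries, 27.7 and 26.1 under ZMYND11 kd1 and 21.6 and 22.7 under ZMYND11 kd2, so the labels and the target matched in every library. With edgeR's quasi-likelihood test, fitted on all 6 libraries over 16510 genes, its log2 fold change was -2.35 and -2.64. A gene was called at an adjusted p under 0.05 (Benjamini-Hochberg, over all 16510 genes), and every p-value below is of this kind. Both knockdowns were compared with the same 2 control libraries, so their results are not independent of each other. Of all genes tested, 39.8% were called lower and 38.2% higher under ZMYND11 kd1, and 36.9% lower and 36.5% higher under ZMYND11 kd2, so counts of calls are to be read beside these shares. Scaled by library totals alone, the share of lower genes among all called genes went from 51.0% to 64.7% under ZMYND11 kd1, from 50.2% to 59.2% under ZMYND11 kd2 and from 49.2% to 38.9% between the knockdowns, and the median of all genes became -0.38, -0.20 and 0.21 on the log2 scale.

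Start regions of 9 genes, picked by hand and not by a rule, are shown first. RefSeq gave promoters of 300 bases (250 before and 50 after the start, GRCh38.p14) for 39 of the 44 genes, with 55 start sites in all. RAD54B, NBN, RMI2, RECQL4 and FANCI had no entry. Each line below runs 5′ to 3′ on the gene's own strand, from 70 bases before the start through the first 30 bases after it. Capitals mark a match, on either strand, to an E2F motif (TTTCCCGC, TTTGGCGC, TTTCGCGC or TTTGCCGC), to the cell cycle homology region or CHR (TTTGAA), or to a CCAAT box (CCAAT), the site of the factor NF-Y. The first 4 genes hold an E2F motif. PIF1, POLQ and BRIP1 fell at least 10-fold in both knockdowns and hold a CHR somewhere in their 300 bases. FANCF and MUS81 did not fall and hold neither an E2F motif nor a CHR. FANCC and PMS2, which hold an E2F motif and fell less than 2-fold, are not shown. Nor are BRCA2 and EME1, which fell at least 10-fold in both without an E2F motif or a CHR. So these lines cannot show whether motif and fall go together. For a gene with several starts, the start with most E2F and CHR matches is shown.
XRCC2, chr7:152676112-152676211, minus strand: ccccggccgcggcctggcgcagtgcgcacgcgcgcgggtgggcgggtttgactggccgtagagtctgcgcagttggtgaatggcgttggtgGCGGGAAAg
EXO1, chr1:241848134-241848233, plus strand: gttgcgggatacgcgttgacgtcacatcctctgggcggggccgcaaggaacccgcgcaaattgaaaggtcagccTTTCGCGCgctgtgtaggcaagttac
FANCD2, chr3:10026367-10026466, plus strand: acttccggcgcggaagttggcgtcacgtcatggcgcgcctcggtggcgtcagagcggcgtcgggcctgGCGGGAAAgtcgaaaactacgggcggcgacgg
MSH6, chr2:47783075-47783174, plus strand: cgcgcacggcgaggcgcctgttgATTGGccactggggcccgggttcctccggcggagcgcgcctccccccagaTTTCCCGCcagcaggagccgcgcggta
PIF1, chr15:64825618-64825717, minus strand: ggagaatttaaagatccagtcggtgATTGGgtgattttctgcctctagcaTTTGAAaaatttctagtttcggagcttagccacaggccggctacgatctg
POLQ, chr3:121545959-121546058, minus strand: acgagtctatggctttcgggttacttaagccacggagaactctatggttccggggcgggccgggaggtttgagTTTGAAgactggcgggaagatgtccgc
BRIP1, chr17:61863499-61863598, minus strand: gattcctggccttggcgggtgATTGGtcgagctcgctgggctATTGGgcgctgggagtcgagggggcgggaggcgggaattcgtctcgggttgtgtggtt
FANCF, chr11:22625794-22625893, minus strand: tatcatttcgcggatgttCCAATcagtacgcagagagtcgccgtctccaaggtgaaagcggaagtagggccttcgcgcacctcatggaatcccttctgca
MUS81, chr11:65860363-65860462, plus strand: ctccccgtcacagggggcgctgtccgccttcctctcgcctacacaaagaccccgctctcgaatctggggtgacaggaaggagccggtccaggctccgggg

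An E2F motif was present in 9 of the 55 promoters (16.4%), against 3.31% of all 35116 promoters and 4.57% of the promoters of genes tested. Those 9 promoters belong to 8 genes, EXO1, FANCA, FANCC, FANCD2, MSH6, PMS2, RMI1 and XRCC2, since PMS2 has 2 start sites that share one match. In XRCC2, EXO1 and MSH6 the match lies just downstream of the start, and in FANCD2 it lies across it. Its 8 carriers varied in response and ran from a log2 fold change of -6.15 for EXO1 to -0.42 for FANCC under ZMYND11 kd1. A CHR was found in 6 of the 55 promoters (10.9%), beside 10.8% of promoters of genes tested. Its 6 carriers were ATM, BRIP1, FANCC, PIF1, POLQ and UBE2T. A CCAAT box was found in 25 of them (45.5%), beside 34.4%, and no matches of different motifs shared a base. Across all genes that fell at least 10-fold in both knockdowns, 8.51% of 235 promoters held an E2F motif and 26.8% held a CHR. Of the 12 promoters of the repair genes that fell this far, 3 held an E2F motif and 3 a CHR. These matches describe letters in a window and were not tested for binding.

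As a set, the repair genes lost most of their RNA in both knockdowns. Their summed level was 1769 and 1761 CPM in the control libraries, 605 and 606 under ZMYND11 kd1, and 628 and 629 under ZMYND11 kd2. In ZMYND11 kd1, 41 of the 44 genes were called lower and 3 higher, beside 39.8% lower and 38.2% higher over all genes tested. At least 2-fold lower were 36 of the 44, beside 22.9% of all genes. In ZMYND11 kd2, 40 were lower, 2 were higher and 2 were not called, beside 36.9% lower and 36.5% higher over all genes. There, 32 of the 44 were at least 2-fold lower, beside 19.2%. The median log2 fold change of the 44 was -2.11 under ZMYND11 kd1 and -1.69 under ZMYND11 kd2, while the median over all genes tested was -0.03 in each.

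**Figure D1:**
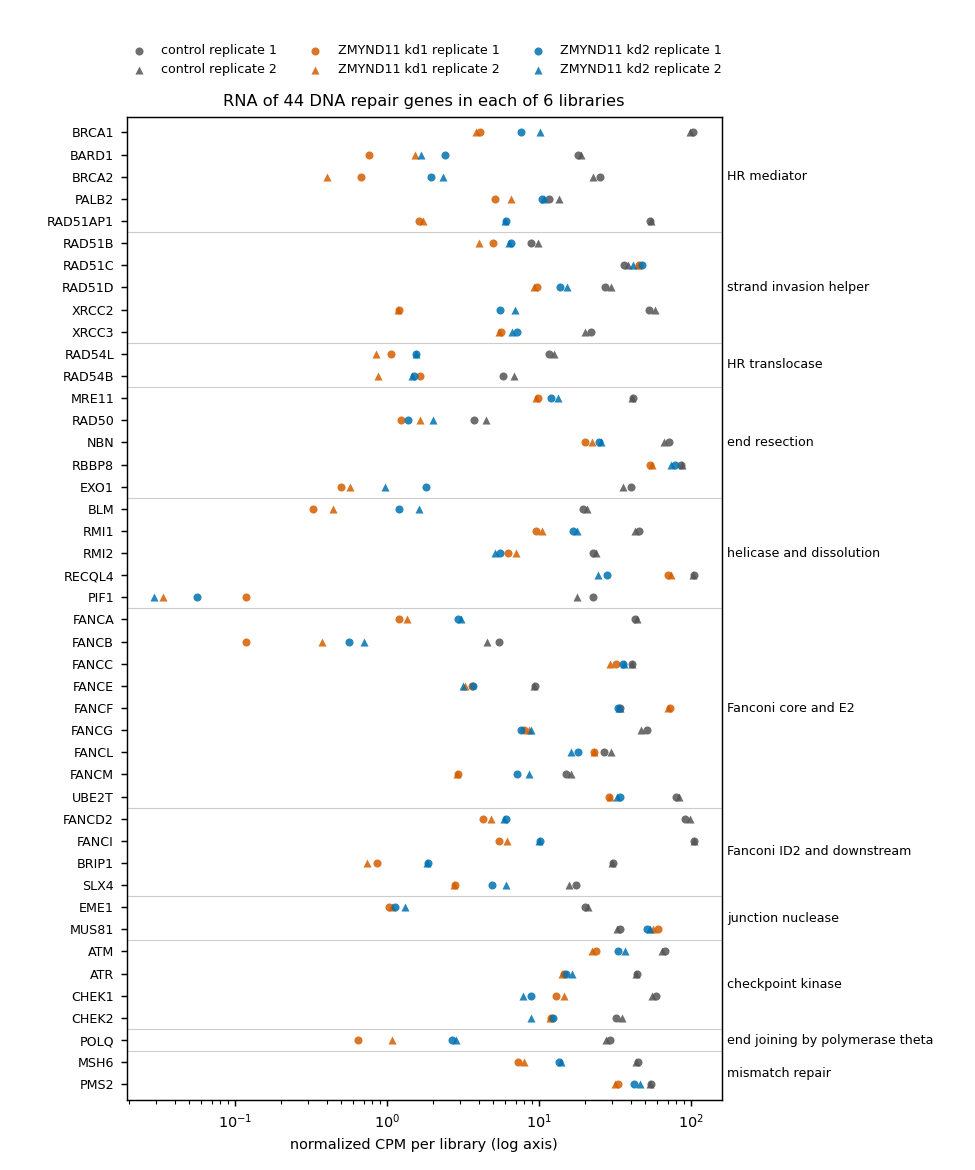
Normalized CPM of each of the 44 genes in each of the 6 libraries, on a log axis, grouped by role; circles and triangles are the 2 libraries of a group. For most genes the knockdown points lie far to the left of the control points, as for EXO1 and PIF1, while RAD51C, MUS81 and, under ZMYND11 kd1, FANCF lie to the right.

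The same 40 genes were lower in both knockdowns, and 31 of them were at least 2-fold lower in both, beside 27.0% and 13.4% of all genes tested. At least 10-fold lower in both were 11 genes: BRCA1, BRCA2, EXO1, BLM, PIF1, FANCA, FANCD2, FANCI, BRIP1, EME1 and POLQ. Falls of that size in both were made by 1.74% of all genes tested, with 3.73% under ZMYND11 kd1 and 2.96% under ZMYND11 kd2. Both comparisons use the same control libraries, which can raise these shared counts for members and for all genes alike. No gene was called in opposite directions. The exceptions were RAD51C and MUS81, higher in both knockdowns, PALB2, lower under ZMYND11 kd1 but not called under ZMYND11 kd2, and FANCF, higher under ZMYND11 kd1 but not called under ZMYND11 kd2. Correcting for GC content and exon length moved 13 of the 44 values under ZMYND11 kd1 by over 1.5 times, 12 of them upward, with shifts between -0.74 and 0.83 on the log2 scale. They became -4.06 for BRCA1, -4.76 for BRCA2, -0.98 for NBN, -3.74 for FANCB, -1.70 for FANCM, -3.53 for FANCI, -4.51 for BRIP1, -0.69 for ATM, -0.84 for ATR and -1.85 for MSH6, all still called lower, while RECQL4, RAD51C and FANCL are given with their roles. After the correction 31 of the 44, in place of 36, were at least 2-fold lower under ZMYND11 kd1. NBN, ATM, ATR, PALB2 (-0.76), RAD51B (-0.72) and RAD50 (-0.99) no longer were, and RECQL4 now was.

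Expressed per kilobase of annotated exon, which allows a comparison between genes, the control cells spanned 0.377 CPM per kb for FANCB to 42.1 for UBE2T, with a median of 3.31. The median level was 0.594 CPM per kb under ZMYND11 kd1 and 0.817 under ZMYND11 kd2. The gene at the top of this order was UBE2T in control cells and under ZMYND11 kd2 (17.3 CPM per kb), and FANCF under ZMYND11 kd1 (21.8). Exon length counts every annotated exon of a gene, so genes with long, rarely used exons are placed lower than their main transcript would be.

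Mediators, proteins that ready resected DNA for strand invasion, held some of the deepest falls. Of 5 genes, all 5 fell under ZMYND11 kd1 (median log2 fold change -4.66) and 4 under ZMYND11 kd2 (median -3.18). BRCA2, a tumour suppressor that acts on resected single-stranded DNA, lies on chromosome 13 from 32315086 to 32400268 (GRCh38, plus strand). It had 25.01 and 22.5 CPM in the control libraries, 0.677 and 0.405 under ZMYND11 kd1 and 1.96 and 2.34 under ZMYND11 kd2. Both knockdowns lay far below the control libraries, and ZMYND11 kd1 lay below ZMYND11 kd2 in every library. The fall was 42.9-fold under ZMYND11 kd1 (log2 fold change -5.42, standard error 0.20, adjusted p = 5.93e-12, edgeR) and 11.1-fold under ZMYND11 kd2 (log2 fold change -3.47, standard error 0.16, adjusted p = 8.42e-11).
BRCA1, which promotes resection and recruits the PALB2 complex, fell from 103 and 98.4 CPM to 4.06 and 3.85 with the first knockdown and 7.64 and 10.2 with the second. BARD1, its obligate partner in the ubiquitin ligase, changed by -4.04 and -3.18 on the log2 scale. RAD51AP1, which stimulates the formation of joint molecules, fell from 53.8 and 54.9 CPM to 1.62 and 1.72 with the first knockdown and 6.07 and 5.93 with the second. PALB2, the bridge between BRCA1 and BRCA2, was the exception. It had 11.6 and 13.4 CPM in control cells, 5.15 and 6.59 under ZMYND11 kd1 and 10.4 and 10.8 under ZMYND11 kd2. Its fall passed the test under ZMYND11 kd1 (log2 fold change -1.10, standard error 0.14, adjusted p = 5.04e-06) and did not under ZMYND11 kd2 (log2 fold change -0.24, standard error 0.13, adjusted p = 0.11). Scaled by library totals alone, PALB2 was called lower under ZMYND11 kd2 as well (log2 fold change -0.41, adjusted p = 0.0107).

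The genes RAD51B, RAD51C, RAD51D, XRCC2 and XRCC3, whose products assist strand invasion, split widely. XRCC2, on chromosome 7 from 152644776 to 152676193 (minus strand), fell 46.3-fold under ZMYND11 kd1 and 8.88-fold under ZMYND11 kd2. Its levels were 52.8 and 58.3 CPM, 1.21 and 1.18 CPM and 5.54 and 6.98 CPM in the control, ZMYND11 kd1 and ZMYND11 kd2 libraries, with no overlap between any 2 groups (log2 fold change -5.53, standard error 0.14, adjusted p = 2.45e-13 under ZMYND11 kd1 and log2 fold change -3.15, standard error 0.11, adjusted p = 7.45e-12 under ZMYND11 kd2). RAD51D changed by -1.59 and -0.97, RAD51B by -1.05 and -0.54, and XRCC3 by -1.93 and -1.62 on the log2 scale, all called. The counts of XRCC3 are uncertain, because 76.7% of its annotated exon bases overlap KLC1 on the other strand, and the use of strand in counting is not given in the sources used here. KLC1 itself was not called in either knockdown (0.06 and 0.08).
RAD51C, a paralog that works with both XRCC3 and the complex of RAD51B, RAD51D and XRCC2, moved the other way. Its libraries had 36.3 and 38.3 CPM in control cells, 45.5 and 45.1 under ZMYND11 kd1 and 47.4 and 41.5 under ZMYND11 kd2, all knockdown libraries above both control libraries. The rise was small, 1.21-fold under ZMYND11 kd1 (log2 fold change 0.28, standard error 0.08, adjusted p = 0.00412) and 1.19-fold under ZMYND11 kd2 (log2 fold change 0.25, standard error 0.08, adjusted p = 0.00818). It rests on how libraries are scaled. Taking only library totals, the value was -0.08 under ZMYND11 kd1 (adjusted p = 0.373) and 0.08 under ZMYND11 kd2 (adjusted p = 0.343). The call was also lost without control replicate 1, with 0.24 (adjusted p = 0.0559) under ZMYND11 kd1 and 0.21 (adjusted p = 0.0854) under ZMYND11 kd2, and under ZMYND11 kd2 without its replicate 1 (0.15, adjusted p = 0.0797). Corrected for GC content and gene length, the ZMYND11 kd1 value was 0.91.

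Both translocases, which move along DNA during strand invasion, fell. RAD54L had 11.6 and 12.6 CPM in control cells, 1.06 and 0.844 under ZMYND11 kd1 and 1.54 and 1.55 under ZMYND11 kd2, a fall of 12.6-fold (log2 fold change -3.65, standard error 0.19, adjusted p = 2.36e-10) and 7.81-fold (log2 fold change -2.97, standard error 0.17, adjusted p = 1.35e-09). RAD54B fell less, by 4.91-fold (log2 fold change -2.30, standard error 0.25, adjusted p = 9.87e-07) and 4.24-fold (log2 fold change -2.08, standard error 0.24, adjusted p = 2.44e-06). The counts of RAD54B are uncertain, since 66.0% of its exon bases are shared with FSBP on the same strand, which fell too (-2.08 and -1.29 on the log2 scale). Smaller overlaps with a gene on the other strand took in 19.9% of the exon bases of RAD54L, 19.6% of FANCA, 22.7% of MSH6 and 16.4% of EME1. Their counts are uncertain too. The partners ZNF276 of FANCA (-1.68 and -1.25) and FBXO11 of MSH6 (-1.72 and -0.07) moved downward. FBXO11 differed by 1.65 between the knockdowns. LRRC41 of RAD54L rose (1.08 and 0.68), and LRRC59 of EME1 was at -0.49 and 0.31.

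Resection factors, which cut back the broken strand, all fell, though by very different amounts. EXO1, the exonuclease of long-range resection and of mismatch repair, dropped from 40.5 and 35.9 CPM in control cells to 0.5004 and 0.574 under ZMYND11 kd1 and 1.79 and 0.963 under ZMYND11 kd2. This was 70.8-fold (log2 fold change -6.15, standard error 0.21, adjusted p = 3.27e-12) and 27.5-fold (log2 fold change -4.78, standard error 0.18, adjusted p = 1.17e-11). The 3 subunits of the MRN complex, which senses the break, all fell, with MRE11 at -2.08 and -1.69, RAD50 at -1.51 and -1.28, and NBN at -1.69 and -1.46 on the log2 scale. RBBP8 (CtIP), which starts resection together with MRN, kept most of its RNA, with 85.6 and 87.4 CPM in control cells, 53.6 and 55.3 under ZMYND11 kd1 and 78.6 and 73.3 under ZMYND11 kd2. It was called under ZMYND11 kd1 (log2 fold change -0.67, standard error 0.06, adjusted p = 1.14e-07) and narrowly under ZMYND11 kd2 (log2 fold change -0.19, standard error 0.06, adjusted p = 0.0111). The second call was lost without control replicate 2 (-0.17, adjusted p = 0.0942).

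Helicases and dissolution factors, which unwind joint molecules, included the deepest fall of all 44 genes. PIF1, a helicase that resolves G-quadruplexes and drives DNA synthesis during recombination, was covered by 684 and 556 counts in control cells, by 4 and 1 under ZMYND11 kd1 and by 2 and 1 under ZMYND11 kd2. In CPM these were 22.5 and 17.9, 0.118 and 0.0338 and 0.0560 and 0.0292. The summed counts of a group, scaled by library size, were 0.390% of control under ZMYND11 kd1 (95% interval 0.126% to 0.913%) and 0.213% under ZMYND11 kd2 (0.0438% to 0.623%), by exact Clopper-Pearson intervals that cover counting error only. Without ZMYND11 kd1 replicate 1 the log2 fold change of PIF1 in that knockdown went from -7.94 to -9.06. BLM, the helicase mutated in Bloom syndrome, fell from 19.6 and 20.6 CPM to 0.324 and 0.439 with the first knockdown and 1.20 and 1.63 with the second (log2 fold change -5.72, standard error 0.21, adjusted p = 6.88e-12 under ZMYND11 kd1 and log2 fold change -3.82, standard error 0.17, adjusted p = 6.35e-11 under ZMYND11 kd2). Its partners RMI1 and RMI2 fell less, with RMI1 at -2.14 and -1.35 and RMI2 at -1.80 and -2.12 on the log2 scale.
RECQL4, a helicase of the same family with a part in replication, was the gene in this role that fell least under ZMYND11 kd1. Its levels were 105 and 103 CPM in control cells, 70.3 and 74.2 under ZMYND11 kd1 and 28.2 and 24.3 under ZMYND11 kd2, with each group apart from the others. The log2 fold change was -0.53 ± 0.07, adjusted p = 5.43e-06 under ZMYND11 kd1 and -1.99 ± 0.07, adjusted p = 1.19e-11 under ZMYND11 kd2 (± standard error). Corrected for GC content and gene length, the ZMYND11 kd1 value was -1.27 and the difference between the knockdowns -0.73.

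Fanconi core genes encode the ligase complex that marks FANCD2 and FANCI, together with UBE2T, its ubiquitin-conjugating enzyme. Of the 9, 8 fell in each knockdown, with a median log2 fold change of -1.49 under ZMYND11 kd1 and -1.28 under ZMYND11 kd2. FANCA, which anchors the complex, had 42.7 and 43.9 CPM in control cells, 1.21 and 1.35 under ZMYND11 kd1 and 2.94 and 3.07 under ZMYND11 kd2. It fell 33.9-fold (log2 fold change -5.08, standard error 0.13, adjusted p = 1.82e-13) and 14.4-fold (log2 fold change -3.85, standard error 0.11, adjusted p = 1.14e-12). FANCG, which binds FANCA directly, changed by -2.58 and -2.59, FANCE by -1.44 and -1.45, and UBE2T by -1.49 and -1.28 on the log2 scale. FANCB, an X-linked scaffold subunit, changed by -4.38 and -2.99, and FANCM, the translocase that brings the complex to the fork, by -2.43 and -0.995. The ZMYND11 kd1 value of FANCB, at 0.118 and 0.372 CPM, was -3.74 without replicate 1 and -5.37 without replicate 2.
FANCC, a subunit that binds FANCE, and FANCL, the ligase subunit itself, changed little, FANCC by -0.42 and -0.19 and FANCL by -0.31 and -0.73. The FANCL value under ZMYND11 kd2 kept its direction and call under all 14 alternatives (-0.90 to -0.39), whereas the FANCC values and the FANCL value under ZMYND11 kd1 depended on the processing. Corrected for GC content and length, FANCC was at 0.04 under ZMYND11 kd1 (adjusted p = 0.621) and at 0.24 under ZMYND11 kd2 (adjusted p = 0.00446), and FANCL was higher under ZMYND11 kd1 at 0.49 (adjusted p = 0.000163). In ZMYND11 kd2 the call on FANCC was lost without control replicate 1 (-0.19, adjusted p = 0.102), without control replicate 2 (-0.18, adjusted p = 0.136), under the DESeq2 Wald test (-0.18, adjusted p = 0.109) and with no filter on low counts (-0.18, adjusted p = 0.0558). In ZMYND11 kd1 the call on FANCL was lost without control replicate 2 (-0.23, adjusted p = 0.0886).
FANCF, the adaptor subunit of the complex, stood apart. The gene, on chromosome 11 from 22622533 to 22625823 (minus strand), had 34.3 and 33.8 CPM in control cells, 72.9 and 70.4 under ZMYND11 kd1 and 32.97 and 33.3 under ZMYND11 kd2. Only the ZMYND11 kd1 libraries were set off, 2.10-fold above control (log2 fold change 1.07, standard error 0.06, adjusted p = 1.09e-09), while ZMYND11 kd2 was not called (log2 fold change -0.04, standard error 0.07, adjusted p = 0.599). Of its exon bases, 9.57% overlap GAS2 on the other strand, and GAS2 fell (-0.96 and -0.46). With library totals alone, FANCF was called lower under ZMYND11 kd2 (-0.21, adjusted p = 0.015).

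Downstream of the core complex stand FANCD2, FANCI, BRIP1 and SLX4. These 4 genes had medians of -4.28 under ZMYND11 kd1 and -3.69 under ZMYND11 kd2, and all 4 fell at least 2-fold in both. FANCD2 fell from 91.5 and 98.5 CPM to 4.30 and 4.83 with the first knockdown and 6.02 and 5.87 with the second, and FANCI from 105 and 105 to 5.42 and 6.18 with the first knockdown and 10.1 and 9.93 with the second. Their summed level with BRIP1 and SLX4 was 244 and 249.8 CPM in control cells, 13.4 and 14.5 under ZMYND11 kd1, and 22.8 and 23.7 under ZMYND11 kd2. BRIP1 (FANCJ), a helicase that binds BRCA1, had 30.7 and 30.3 CPM in control cells, 0.854 and 0.743 under ZMYND11 kd1 and 1.85 and 1.84 under ZMYND11 kd2 (log2 fold change -5.24, standard error 0.15, adjusted p = 6.74e-13 and log2 fold change -4.04, standard error 0.13, adjusted p = 3.37e-12). SLX4, the scaffold for crosslink-cutting nucleases, fell least of the 4, from 17.6 and 15.7 CPM to 2.80 and 2.77 with the first knockdown and 4.87 and 6.07 with the second (log2 fold change -2.58, standard error 0.15, adjusted p = 8.88e-10 and log2 fold change -1.61, standard error 0.14, adjusted p = 7.95e-08).

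Junction nuclease genes moved in opposite directions although their products form a single enzyme. EME1, the regulatory subunit, had 20.05 and 20.9 CPM in control cells, 1.03 and 1.08 under ZMYND11 kd1 and 1.12 and 1.31 under ZMYND11 kd2, a fall of 19.4-fold (log2 fold change -4.27, standard error 0.16, adjusted p = 8.98e-12) and 16.8-fold (log2 fold change -4.07, standard error 0.16, adjusted p = 1.76e-11). MUS81, the catalytic subunit, had 33.8 and 32.7 CPM, 60.5 and 56.6 CPM and 51.2 and 53.9 CPM in the same order, and all knockdown libraries lay above both controls. It rose 1.76-fold under ZMYND11 kd1 (log2 fold change 0.82, standard error 0.07, adjusted p = 4.6e-08) and 1.58-fold under ZMYND11 kd2 (log2 fold change 0.66, standard error 0.07, adjusted p = 6.6e-07). Of the exon bases of MUS81, 13.9% overlap CFL1 on the other strand, and CFL1 rose as well (0.65 and 0.71), so the MUS81 counts are uncertain. Across all 14 alternative settings MUS81 stayed higher, between 0.46 and 0.87 under ZMYND11 kd1 and between 0.49 and 0.70 under ZMYND11 kd2.

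All 4 checkpoint kinases fell in both knockdowns, with medians of -1.56 and -1.57. CHEK1, the kinase that stalls the cycle after replication stress, had 59.1 and 55.2 CPM in control cells, 12.9 and 14.6 under ZMYND11 kd1 and 8.82 and 7.88 under ZMYND11 kd2. It was among the few genes with the lower level under ZMYND11 kd2 (log2 fold change -2.06, standard error 0.09, adjusted p = 3.77e-11 under ZMYND11 kd1 and log2 fold change -2.77, standard error 0.10, adjusted p = 6.24e-12 under ZMYND11 kd2). ATM, the kinase activated by double-strand breaks, fell from 67.3 and 64.1 CPM to 23.5 and 22.3 with the first knockdown and 33.1 and 36.6 with the second (log2 fold change -1.52, standard error 0.08, adjusted p = 1.4e-10 and log2 fold change -0.91, standard error 0.07, adjusted p = 3.61e-08). ATR, the kinase upstream of CHEK1, changed by -1.60 and -1.48, and CHEK2, the main target of ATM, by -1.51 and -1.66. Among the kinases the values ran from -2.06 to -1.51 under ZMYND11 kd1. Corrected for GC content and gene length, the falls under ZMYND11 kd1 were smaller for ATM (-0.69, adjusted p = 7.66e-08) and ATR (-0.84, adjusted p = 5.04e-08).

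POLQ encodes polymerase theta, which joins resected ends through short microhomologies where recombination fails. It fell from 29.5 and 27.5 CPM to 0.648 and 1.08 under ZMYND11 kd1 and 2.66 and 2.86 under ZMYND11 kd2, or 33.3-fold (log2 fold change -5.06, standard error 0.17, adjusted p = 3.69e-12) and 10.3-fold (log2 fold change -3.37, standard error 0.14, adjusted p = 4.6e-11). Of the mismatch repair genes, MSH6, a mismatch-binding protein, had 44.5 and 43.1 CPM in control cells, 7.27 and 7.94 under ZMYND11 kd1 and 13.5 and 14.0 under ZMYND11 kd2 (log2 fold change -2.53, standard error 0.09, adjusted p = 5.93e-12 and log2 fold change -1.68, standard error 0.09, adjusted p = 2.95e-10). PMS2, an endonuclease of mismatch repair, had 54.9 and 53.3 CPM, 33.03 and 31.6 CPM and 42.2 and 46.0 CPM (log2 fold change -0.74, standard error 0.07, adjusted p = 1.9e-07 and log2 fold change -0.29, standard error 0.07, adjusted p = 0.00143). Its values are uncertain, because it has near-identical pseudogenes, and counts assigned to PMS2P1 alone came to 62.4% of those assigned to PMS2. In ZMYND11 kd2 its call was lost under the correction for GC content and length (-0.0041, adjusted p = 0.955).

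The knockdowns differed from each other in most of these genes. Tested directly under ZMYND11 kd2 against ZMYND11 kd1, 29 of the 44 were higher, 6 were lower and 9 were not called, beside 34.9% higher and 33.8% lower over all genes tested, and the median log2 difference was 0.46. Of the 40 genes lower in both, 28 had fallen less under ZMYND11 kd2 and 4 had fallen less under ZMYND11 kd1, namely RMI2, RECQL4, FANCL and CHEK1. The matching split among all tested genes lower in both was not counted, so 28 to 4 cannot be called particular to these genes. XRCC2 differed most (log2 fold change 2.38, standard error 0.18, adjusted p = 2.33e-08), followed by BRCA2 (log2 fold change 1.96, standard error 0.27, adjusted p = 1.29e-05), BLM (log2 fold change 1.90, standard error 0.30, adjusted p = 6.58e-05), RAD51AP1 (log2 fold change 1.84, standard error 0.14, adjusted p = 2.5e-08) and POLQ (log2 fold change 1.69, standard error 0.23, adjusted p = 1.15e-05). In the other direction stood RECQL4 (log2 fold change -1.46, standard error 0.07, adjusted p = 4.54e-10) and FANCF (log2 fold change -1.11, standard error 0.06, adjusted p = 1.7e-09). EME1 (0.20 ± 0.23, adjusted p = 0.448, ± standard error), FANCG (-0.01 ± 0.11, adjusted p = 0.945) and FANCE (-0.01 ± 0.17, adjusted p = 0.96) were not called between the knockdowns. The differences in MUS81 (-0.16, adjusted p = 0.0481), RMI2 (-0.32, adjusted p = 0.0399) and XRCC3 (0.31, adjusted p = 0.0424) were called but lost under most of the 14 alternatives. Corrected for GC content and length, the difference in MUS81 was called in the other direction (0.16, adjusted p = 0.0302). That in FANCB (1.39) was 0.75 (adjusted p = 0.211) without ZMYND11 kd1 replicate 1 and 2.38 (adjusted p = 0.00528) without its replicate 2. ZMYND11 RNA was itself slightly lower under ZMYND11 kd2 (log2 fold change -0.28, standard error 0.07, adjusted p = 0.00265), a difference not called with library totals alone (-0.0979, adjusted p = 0.259).

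Other genes of the same pathways, listed by function, gave a more mixed picture. Their counts stand beside 39.8% lower and 38.2% higher over all genes tested under ZMYND11 kd1, and 36.9% and 36.5% under ZMYND11 kd2. Of 40 further genes of recombination and the Fanconi pathway, 22 were lower and 12 higher under ZMYND11 kd1, and 20 were lower and 14 higher under ZMYND11 kd2, with medians of -0.39 and -0.22. GEN1, a resolvase that cuts Holliday junctions, fell from 55.7 and 54.7 CPM to 5.03 and 5.37 with the first knockdown and 6.41 and 7.44 with the second (log2 fold change -3.41, standard error 0.10, adjusted p = 8.9e-13 and log2 fold change -2.99, standard error 0.10, adjusted p = 3.31e-12). SWI5, a cofactor of strand exchange, rose from 14.7 and 15.0 CPM to 35.4 and 39.5 with the first knockdown and 42.0 and 34.8 with the second (log2 fold change 1.34, standard error 0.10, adjusted p = 1.34e-08 and log2 fold change 1.37, standard error 0.10, adjusted p = 1.39e-08). Of 17 further damage checkpoint genes, 13 fell and 0 rose under ZMYND11 kd1, and 13 fell and 2 rose under ZMYND11 kd2, with medians of -0.61 and -0.78. TIMELESS, which protects stalled forks, fell most in the mean of both (-3.79 and -3.49), and ETAA1, an activator of ATR, was not called in either (0.03 and -0.09).
Among 5 further mismatch repair genes, 4 fell in each knockdown, with medians of -0.63 and -0.50. PMS1 changed by 0.02 (adjusted p = 0.844) and 0.19 (adjusted p = 0.026).

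Non-homologous end joining rejoins broken ends directly, and the excision pathways replace damaged bases or short stretches of a strand. In end joining, 4 of 10 genes were lower and 3 higher in each knockdown, with medians of -0.08 and -0.18. These counts lie near the shares over all genes tested, 39.8% lower and 38.2% higher under ZMYND11 kd1 and 36.9% and 36.5% under ZMYND11 kd2, beside which the excision repair counts are also to be read. DCLRE1C (Artemis), which opens DNA hairpins, fell (-2.92 ± 0.14, adjusted p = 8.7e-11, and -1.81 ± 0.12, adjusted p = 7.55e-09, ± standard error), and XRCC6 (Ku70), which caps broken ends, rose (0.86 ± 0.06, adjusted p = 2.61e-09, and 0.97 ± 0.06, adjusted p = 1.13e-09). In nucleotide excision repair, 16 of 17 genes were tested, and 6 were lower and 10 higher under ZMYND11 kd1, 7 lower and 8 higher under ZMYND11 kd2, with medians of 0.31 and -0.04. The untested gene, GTF2H4, was at 0 counts in every library. ERCC5 changed by -2.04 and -0.91, and GTF2H1, a subunit of TFIIH, by 1.32 and 1.49.
In base excision repair, 7 of 16 genes were lower and 7 higher under ZMYND11 kd1, while 11 were lower and 1 higher under ZMYND11 kd2, with medians of -0.01 and -0.41. MUTYH, a glycosylase, changed by -1.81 and -1.53, and APEX1, the main abasic site endonuclease, by 1.36 and 0.38.

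**Figure D2:**
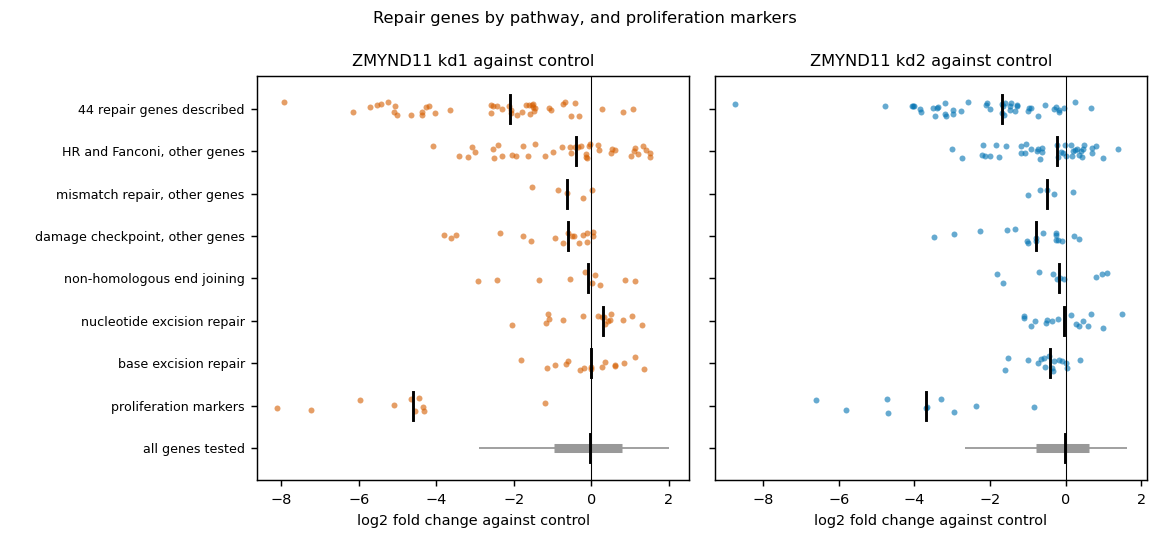
Log2 fold change against control of each gene in the 44 repair genes, in the 6 other repair lists and in 10 proliferation markers, with a black bar at each median; the grey box spans the 25th to 75th percentile of all 16510 genes tested and the thin line the 5th to 95th. The 44 genes have medians of -2.11 and -1.69, the proliferation markers -4.61 and -3.68, and the 3 lists of excision repair and end joining have medians from -0.41 to 0.31.

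Many repair genes share a start region with a neighbour on the other strand, and the median of these neighbours was above 0 in both knockdowns. In the annotation (GENCODE 44, outermost ends of each gene model), 15 of the 44 genes had a tested neighbour whose start lay at most 1000 bases upstream and that is transcribed away from them. In ZMYND11 kd1, 5 of the 15 neighbours were lower, 9 were higher and 1 was not called, and their median log2 fold change was 0.48, beside -2.14 for the 15 repair genes themselves. The shares over all genes tested were 39.8% lower and 38.2% higher, so the count of lower neighbours was near that of genes at large. In ZMYND11 kd2, 1 was lower, 8 were higher and 6 were not called, with medians of 0.36 and -1.62, beside 36.9% lower and 36.5% higher over all genes. EME1 and MRPL27, a mitochondrial ribosomal protein gene, start 13 bases apart. EME1 fell by 4.27 and 4.07 on the log2 scale, while MRPL27 rose by 1.53 (adjusted p = 2.86e-10) and 0.72 (adjusted p = 1.8e-06). FANCB and MOSPD2 start 166 bases apart, with MOSPD2 at 1.05 and 1.13. RMI1 and HNRNPK start 167 bases apart, with HNRNPK at 0.26 and 0.67. LRRC14, 147 bases from RECQL4, was the neighbour that fell in both knockdowns (-1.08 and -0.86). These 4 pairs were chosen after their values were seen.

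The fall of the repair genes came together with a fall of proliferation markers. All 10 markers of dividing cells were lower in both knockdowns, with medians of -4.61 and -3.68, and their summed level was 1185 and 1189 CPM in control cells, 110.3 and 105 under ZMYND11 kd1, and 168 and 154 under ZMYND11 kd2. MKI67, the gene of the Ki-67 antigen, had 187 and 189 CPM in control cells, 0.648 and 0.709 under ZMYND11 kd1 and 1.93 and 1.96 under ZMYND11 kd2. The study itself reports faster growth, more colonies and larger xenografts after stable ZMYND11 knockdown in the same cell line. The fall of these markers runs the other way, and the reason for this difference was not tested. In these bulk libraries, fewer cells in S and G2 phase and less RNA per cell cannot be told apart, and the part of proliferation in the repair gene values was not tested. Markers of the cell line were present. The 10 prostate epithelium genes summed to 2807 and 2803 CPM in control cells, 3037 and 3067 under ZMYND11 kd1, and 3693 and 3686 under ZMYND11 kd2, although KLK3 was among 4 that fell at least 2-fold in both. Of other cell types, 6 blood cell markers summed to at most 4.11 CPM in any library, with CD3E at 0 in all, and 5 endothelial markers to at most 0.290, with KDR at 0 in all. The 6 fibroblast markers summed to 33.2 to 35.9 CPM in control cells, 86.6 to 87.2 under ZMYND11 kd1 and 44.3 to 44.7 under ZMYND11 kd2, mostly from COL1A1 (23.9 and 23.8, 74.8 and 74.2 and 30.1 and 32.4 CPM), and their part in the results was not tested.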

How the data were processed

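The 6 libraries of 22Rv1 RNA were grouped by their labels into control, ZMYND11 kd1 and ZMYND11 kd2, 2 in each. Per the submitters' processing notes, FastQC 0.11.9, STAR 2.7.9a, HTSeq 0.13.5 and the hg38 build were used. The authors deposited raw read counts for each gene symbol, with no normalization. How the counting treated strand and reads with several matches is not given in the sources used here. Low counts limit the precision, with PIF1 at 1 to 4 counts per knockdown library. The test was edgeR's quasi-likelihood test (edgeR 4.0.16, R 4.3.3, TMM, filterByExpr, all 6 libraries in one fit with 3 residual degrees of freedom), with Benjamini-Hochberg adjustment over 16510 genes. A standard error is the absolute log2 fold change over the square root of the F statistic. The functions were tested on simulated data.

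The 44 genes and all lists were chosen with earlier results of these data known. Genes were named by a rule: in each role and each other repair list, the lowest and highest mean of both log2 fold changes, then genes higher in both knockdowns, genes differing by at least 1.5 log2 between knockdowns, and ZMYND11. A gene picked by this rule is left out of the text. Other members are given by their values as part of their role. Positions and overlaps came from GENCODE 44, promoters from RefSeq (GRCh38.p14). The alternatives were DESeq2 1.42.0 size factors, library totals alone, the DESeq2 Wald test, only the groups compared, a replicate block, a minimum of 10 counts in every library, no filter, a lowess correction (span 0.3) for GC content and length, and each library left out. No protein sequences were used here.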

Additional observations from a re-analysis of the deposited data

Results flagged for a closer look

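The results below are those in which the effect of the knockdown differed between ZMYND11 kd1 and ZMYND11 kd2, by edgeR's test of ZMYND11 kd2 against ZMYND11 kd1 (adjusted p under 0.05). Each value is the log2 fold change of ZMYND11 kd2 against ZMYND11 kd1, so a positive value is a higher level under ZMYND11 kd2. No explanation was weighed.

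Mediators were all higher under ZMYND11 kd2: BRCA1 by 1.17, BARD1 by 0.86, BRCA2 by 1.96, PALB2 by 0.86 and RAD51AP1 by 1.84. Of the paralogs, XRCC2 was higher by 2.38, RAD51D by 0.62, RAD51B by 0.51 and XRCC3 by 0.31, and the translocase RAD54L by 0.69. Resection factors differed by 1.37 for EXO1, 0.48 for RBBP8, 0.39 for MRE11 and 0.23 for NBN. Helicases and dissolution factors went both ways, with BLM at 1.90 and RMI1 at 0.79, against RMI2 at -0.32 and RECQL4 at -1.46.

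In the Fanconi core, FANCM (1.43), FANCB (1.39), FANCA (1.23), FANCC (0.23) and UBE2T (0.21) were higher under ZMYND11 kd2, while FANCF (-1.11) and FANCL (-0.42) were lower. Downstream, BRIP1 (1.20), SLX4 (0.97), FANCI (0.79) and FANCD2 (0.39) were higher. MUS81 was lower (-0.16), ATM higher (0.61) and CHEK1 lower (-0.71). POLQ (1.69), MSH6 (0.85) and PMS2 (0.45) were higher.

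Several of these calls rest on 1 library. Without ZMYND11 kd1 replicate 1 the call was lost for FANCB (0.75, adjusted p = 0.211), BARD1 (0.43, adjusted p = 0.212), NBN (0.16, adjusted p = 0.203), UBE2T (0.20, adjusted p = 0.08) and FANCD2 (0.30, adjusted p = 0.0924). Without ZMYND11 kd1 replicate 2 it was lost for RAD51B (0.36, adjusted p = 0.0917), RAD54L (0.54, adjusted p = 0.117), FANCC (0.17, adjusted p = 0.122) and UBE2T (0.22, adjusted p = 0.0513), while FANCB went to 2.38. Without ZMYND11 kd2 replicate 1 it was lost for BARD1 (0.56, adjusted p = 0.0962) and UBE2T (0.17, adjusted p = 0.0535), and without ZMYND11 kd2 replicate 2 for FANCB (1.23, adjusted p = 0.0621). The calls on MUS81, RMI2 and XRCC3 were lost under most of the 14 alternatives, that on XRCC3 in 8. Corrected for GC content and length, the call was lost for BARD1 (0.49, adjusted p = 0.145), RAD51B (0.30, adjusted p = 0.0883), MRE11 (0.0266, adjusted p = 0.814), FANCB (0.94, adjusted p = 0.105) and FANCD2 (0.14, adjusted p = 0.313). NBN (-0.23, adjusted p = 0.0172) and MUS81 (0.16, adjusted p = 0.0302) were then called in the other direction. The DESeq2 Wald test lost the calls on RAD54L (adjusted p = 0.0558) and NBN (adjusted p = 0.0579), and a fit of only the 2 groups compared that on RAD54L (adjusted p = 0.0708).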

How the results depend on the processing

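Each group had 2 libraries, so 3 residual degrees of freedom carried every test. The fall of the repair genes held under the 14 alternatives, with the median of the 44 genes from -2.46 to -1.96 under ZMYND11 kd1 and from -1.85 to -1.67 under ZMYND11 kd2. Of the single gene values, 609 of 614 kept direction and call under ZMYND11 kd1 and 602 of 614 under ZMYND11 kd2, but 542 of 613 between the knockdowns, where 47 lost the call, 3 gained it and 21 changed sign. PIF1 and FANCB could not be tested at 10 counts in every library. Low counts set the limit for PIF1, and the causes of the changes below were not tested.

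The number of genes higher under ZMYND11 kd2 was 1 with library totals alone, and 1 to 2 with each library left out (1 without control replicate 1 and without ZMYND11 kd2 replicate 1). With library totals alone, the sign changed for nucleotide excision repair (median -0.0493) and RAD51C (-0.0755) under ZMYND11 kd1, and between the knockdowns for RAD51C (0.16), FANCE (0.17), FANCG (0.17), MUS81 (0.0278) and CHEK2 (0.0280). With the correction for GC content and length it changed for FANCC (0.0392 and, under ZMYND11 kd2, 0.24) and FANCL (0.49 under ZMYND11 kd1), and between the knockdowns for nucleotide excision repair (median -0.0941), RAD54B (-0.0703), RAD50 (-0.0722), NBN (-0.23), FANCE (0.21), FANCG (0.15), MUS81 (0.16) and ATR (-0.20). With each library left out, the median of base excision repair under ZMYND11 kd1 ran from -0.0641 to 0.0321 and that of nucleotide excision repair under ZMYND11 kd2 from -0.0872 to 0.0108. Between the knockdowns the ranges crossed 0 for PIF1 (-1.38 to 0.31), FANCE (-0.13 to 0.0968), RAD54B (-0.15 to 0.76), FANCG (-0.12 to 0.0879), RAD51C (-0.13 to 0.0705), RAD50 (-0.0614 to 0.48) and CHEK2 (-0.42 to 0.0662).

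Libraries with the same number did not deviate together (correlations of 0.0141, -0.0497 and -0.111), so the numbers do not pair them. With the replicate number as a block, 41 and 40 genes were lower and 3 and 2 higher under ZMYND11 kd1 and ZMYND11 kd2, with no call changed. Between the knockdowns, 29 were higher and 4 lower, and the calls on RMI2 and MUS81 were lost.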
